A study of Mus musculus with 10 samples.

Results

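Polyamine metabolism was followed through 10 genes of synthesis, breakdown, antizyme control and arginine supply, out of 14478 genes tested on the same arrays. The genes were Odc1, Amd1, Srm, Sms, Sat1, Oaz1, Oaz2, Azin1, Arg1 and Arg2, taken as every gene probe whose accession mapped to one of these symbols through RefSeq. Together they had 15 gene probes, and each gene had at least 1 probe that passed the filter on dim spots. Where a gene had several probes, the one with the highest mean was tested and the others are given beside it.

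The samples were 7 tumors of the colon, which the labels call tubular adenomas carrying a dominant active Ctnnb1 mutation, and 3 samples of adjacent normal colon epithelium, given as wild type for Ctnnb1. They came from 3 mice, of which mouse 41 and mouse 42 each gave 1 normal and 3 tumors and mouse 43 gave 1 normal and 1 tumor. All animals, those that gave the normal samples included, were CYP1A-humanized mice on AIN93M diet, which carry human CYP1A genes. At 6 weeks of age each was given PhIP, a carcinogen of cooked meat, 2 times by gavage at 100 mg/kg. DSS (dextran sulfate sodium, an agent of experimental colitis) followed for 1 week at 1.5% in drinking water, then 8 weeks without treatment, and the labelled age is 16 weeks. The labels give mouse 41 and mouse 43 as male and mouse 42 as female, so sex and animal cannot be told apart. The normal samples are therefore exposed epithelium beside tumors and not tissue of untreated mice.

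The polyamines putrescine, spermidine and spermine are small cations that bind RNA and DNA, and dividing cells need them. Arginases turn arginine into ornithine, ornithine decarboxylase (Odc1) makes putrescine from it, and S-adenosylmethionine decarboxylase (Amd1) supplies the group that spermidine synthase (Srm) and spermine synthase (Sms) add. Antizymes (Oaz1, Oaz2) bind ornithine decarboxylase and deliver it to the proteasome, and the antizyme inhibitor Azin1 releases it. In colon tumors the pathway is best known for Odc1, a target gene of MYC, which itself lies downstream of Wnt signalling.

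Of the 10 genes 3 were higher in tumors (Amd1, Sms and Oaz2) and 2 were lower (Azin1 and Arg2), and the other 5 did not pass a Benjamini-Hochberg adjusted p of 0.05 in limma. Among all genes tested 49.6% passed (25.9% higher and 23.7% lower), so a share of 50% among the 10 lies at the level of the arrays as a whole. The median log2 difference was 0.22 over the 10 genes and 0.01 over all genes tested. The 5 that passed differed by 1.21-fold to 1.63-fold. All 7 tumors lay above all 3 normals for none of the 10 genes (21.4% of all genes) and below them for Azin1 and Arg2 (20% of all genes). When spots were summarized by their median instead of their mean none of the 10 passed, and none did in the authors' deposited table, which held 9 of them and lacked Azin1. In these settings 18.9% and 22.3% of all genes tested passed. The genes called kept their directions in each setting that gave them a value. On 2 arrays, mouse 42 normal and mouse 43 tumor, markers of squamous epithelium were high. Without both arrays none of the 5 genes passed with the mouse as a block (limma adjusted p = 0.133 to 0.683). Of all genes 17.3% passed in that fit, in which mouse 41 alone, with 1 normal, has both tissues. With the same 8 arrays and no block Sms and Azin1 passed, as did 40.5% of all genes.

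**Figure D1:**
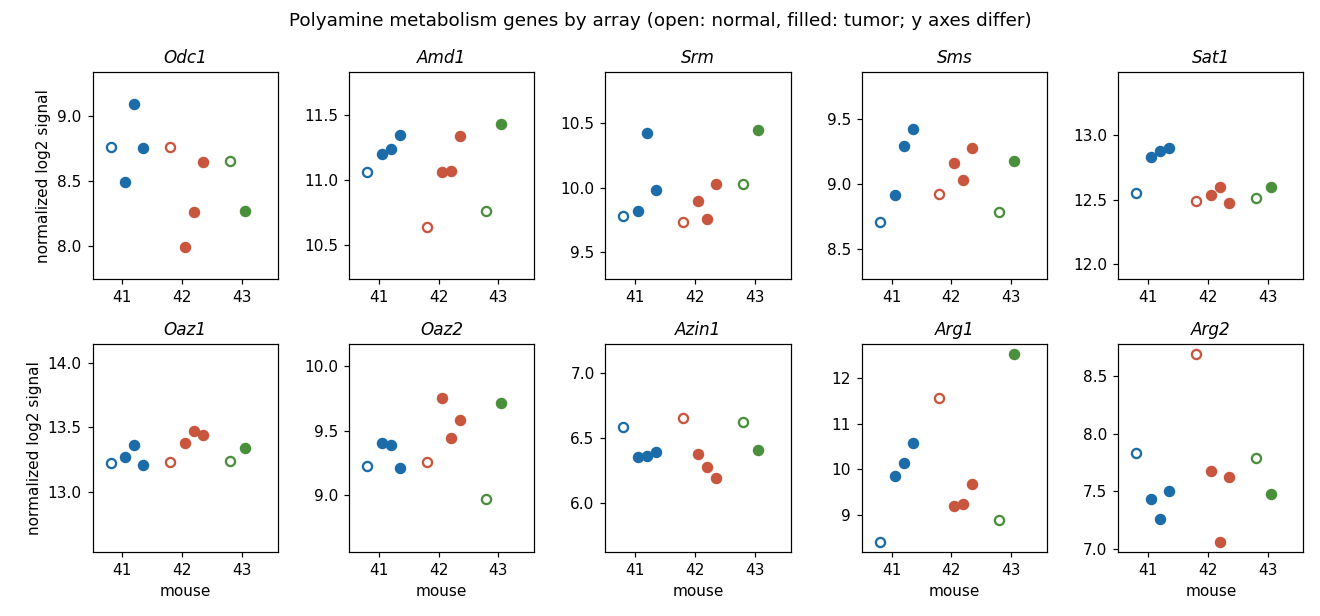
Normalized log2 signal of the tested probe of each gene (y axis, scaled separately per gene) for each array by mouse (x axis), with open circles for normals and filled circles for tumors. Amd1 lies above the own normal in all 7 tumors, Azin1 and Arg2 lie below it in all 7, and Arg1 is above it in mouse 41 and mouse 43 and below it in mouse 42.

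Odc1, the first and most tightly controlled step of synthesis, did not pass the test in these tumors. Its log2 signal (probe mMC023958) was 8.76, 8.77 and 8.66 in the normals of mouse 41, mouse 42 and mouse 43, and in the tumors it ran from 7.99 through a median of 8.50 to 9.09. Tumor 2 of mouse 41 was the only tumor above its own normal, and the other 6 tumors lay below theirs, by as little as 0.01 in tumor 3 of mouse 41 and as much as 0.77 in tumor 1 of mouse 42. Between tumors and normals the log2 difference came to -0.27 ± 0.17 (SE, 7 tumors and 3 normals, limma adjusted p = 0.236). Its 95% interval ran from -0.66 to 0.13. The normals spanned a narrow range, whereas the tumors had an SD of 0.37, and none of the 30 alternative settings brought the difference past the threshold.

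Amd1, which commits S-adenosylmethionine to polyamine synthesis, was higher in tumors. Its log2 signal (probe mMC023154) was 11.06, 10.64 and 10.76 in the 3 normals and 11.06 to 11.44 in the tumors, with a median of 11.24. All 7 tumors exceeded the normal of the same mouse, although the normal of mouse 41 reached the level of the lowest tumor. The difference was 0.44 ± 0.11, or 1.36-fold (limma adjusted p = 0.00728), and by mouse it was 0.20 in mouse 41, 0.52 in mouse 42 and 0.67 in mouse 43. Its call was lost when the mouse 42 normal was left out (0.39, adjusted p = 0.059) and within the earlier scan session (0.43, adjusted p = 0.11). With the mouse as a block, leaving out a mouse's only normal also takes its tumors out of the difference. The fit without the mouse 42 normal thus rests on mouse 41 and mouse 43. The mouse 42 normal had the lowest Amd1 signal and the mouse 43 tumor the highest, and these are the 2 arrays with high squamous markers. Without both the difference was 0.20 (adjusted p = 0.394), and 0.30 with no block (adjusted p = 0.0717). The Amd1 spots were uneven, with a spot mean over spot median of 2.61 to 7.33 and a median ratio of 6.39 in normals and 4.33 in tumors. Its close paralog Amd2, which is not among the 10, was 1.39-fold higher (log2 difference 0.47 ± 0.09, adjusted p = 0.00191), with normals of 9.90 to 10.09 and tumors of 10.30 to 10.58. Amd2 did not pass with the spot median (0.40, adjusted p = 0.401). How far each probe also binds the other paralog was not tested.

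Srm and Sms carry out the last additions of synthesis, and both lay above the own normal in 7 of 7 tumors. Srm (probe mMC025869) was at 9.78, 9.74 and 10.03 in the normals and at 9.76 to 10.45 in the tumors, with a median of 9.98. The highest values were in the tumor of mouse 43 and tumor 2 of mouse 41, and the groups overlapped. Its difference of 0.27 ± 0.13 did not pass (limma adjusted p = 0.112, 95% interval -0.02 to 0.57), nor did that of its other probe (0.32 ± 0.15, adjusted p = 0.1 in a fit of every kept probe, of which 47.9% passed). With median scaling in place of quantile normalization Srm passed (0.41, adjusted p = 0.037).

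Sms (probe mMA033246) was at 8.70, 8.92 and 8.78 in the normals and ran from 8.91 through 9.18 to 9.43 in the tumors. Only tumor 1 of mouse 41 lay below any normal, that of mouse 42. The difference was 0.38 ± 0.12, or 1.297-fold (limma adjusted p = 0.0276). A second Sms probe gave 0.14 ± 0.09 (adjusted p = 0.254) with 5 of 7 tumors above the own normal, and the remaining Sms probe stayed at background throughout. The rise of Sms therefore rests on 1 of 3 probes. It did not pass without the mouse 41 normal, a fit that rests on mouse 42 and mouse 43 (0.30, adjusted p = 0.152). Leaving out either sample of mouse 43, which removes that mouse from the difference, also ended the call (0.37, adjusted p = 0.0706).

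The sequences upstream of the synthesis genes Odc1, Amd1 and Sms are shown as a description. They are 250 bases before a RefSeq start in GRCm38.p6, 5′ to 3′ on the gene's strand. Capitals mark each GC box (GGGCGG) and each E-box (CACGTG, the site read by MYC and MAX) on either strand. The Odc1 window is chr12:17544623-17544872 on the plus strand, the Amd1 window chr10:40302189-40302438 on the minus strand, and the Sms window chrX:157492288-157492537 on the minus strand. The annotated Odc1 gene begins at 17544808, so the last part of its window lies within the gene.
Odc1: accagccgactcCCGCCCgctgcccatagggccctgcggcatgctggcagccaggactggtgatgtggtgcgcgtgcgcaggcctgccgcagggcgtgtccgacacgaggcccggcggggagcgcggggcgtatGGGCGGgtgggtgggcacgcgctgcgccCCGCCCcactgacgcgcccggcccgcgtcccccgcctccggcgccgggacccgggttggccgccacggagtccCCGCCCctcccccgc
Amd1: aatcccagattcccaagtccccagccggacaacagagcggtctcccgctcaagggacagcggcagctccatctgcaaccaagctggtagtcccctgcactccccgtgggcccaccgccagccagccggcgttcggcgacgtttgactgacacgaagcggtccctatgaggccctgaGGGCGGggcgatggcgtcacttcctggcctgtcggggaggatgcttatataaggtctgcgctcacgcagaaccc
Sms: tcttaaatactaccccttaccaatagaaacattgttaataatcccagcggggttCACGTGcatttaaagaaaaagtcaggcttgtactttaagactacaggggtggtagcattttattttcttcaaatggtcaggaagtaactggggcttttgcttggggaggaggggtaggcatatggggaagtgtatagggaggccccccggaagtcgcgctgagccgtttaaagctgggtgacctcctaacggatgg
The E-box letters stood once, 196 bases before the Sms start, and in no other of the 7 windows that matched 6 of the 10 genes. The share of all 32851 RefSeq windows with CACGTG was 6.02%. The Odc1 window held 4 GC boxes and the Amd1 window 1, and 5 of the 7 windows held at least 1, against 32.7% of all windows. The letters CTTTGAT, a core read by TCF/LEF factors, stood in none of the 7 windows and in 3.21% of all. No motif overlapped another of a different kind, although GC boxes share bases in a further Sms window. Such a match is a description of these letters only. Bases outside the windows were not searched, so a site elsewhere in or near a gene would be missed. A link between these letters and expression was not tested. That further Sms window, from another start, held 4 GC boxes and no E-box and is not printed, so the Sms window printed is the one with the E-box.

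Sat1, the acetyltransferase that marks spermidine and spermine for export or oxidation, did not pass. Its log2 signal (probe mMC023441) was 12.55, 12.49 and 12.51 in the normals. The 3 tumors of mouse 41 stood at 12.83, 12.87 and 12.90, and the 4 tumors of mouse 42 and mouse 43 at 12.47 to 12.60. The difference was 0.16 ± 0.08 (limma adjusted p = 0.113, 95% interval -0.01 to 0.33), with 6 of 7 tumors above the own normal. The difference between the effects of mouse 42 and mouse 41 was -0.27 ± 0.16 and did not pass (adjusted p = 0.755). The probe was bright and its spots were uneven, with a spot mean of 1.15 to 6.03 times the spot median, and with the spot median the difference was 0.64 (adjusted p = 0.159).

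Of the antizymes, Oaz2 rose and Oaz1 did not pass. Oaz2 (probe mMC022687) was at 9.23, 9.26 and 8.97 in the normals and ran from 9.21 through 9.45 to 9.75 in the tumors. Tumor 3 of mouse 41 lay just below its normal and the other 6 tumors lay above theirs. The difference was 0.35 ± 0.12, or 1.28-fold (limma adjusted p = 0.0346), with 0.11 in mouse 41, 0.33 in mouse 42 and 0.74 in mouse 43. It was the least stable of the 5 calls, passing in 13 of 30 alternative settings, and was 0.22 without either sample of mouse 43 (adjusted p = 0.143) and 0.18 within the earlier scan session (adjusted p = 0.322). Without the 2 arrays with high squamous markers it was 0.11 (adjusted p = 0.683), and 0.36 with no block (adjusted p = 0.0676). It was also lost without the mouse 42 normal, which takes that mouse's tumors out of the difference too (adjusted p = 0.113). Leaving out any 1 of tumors 1 and 2 of mouse 41 or tumors 1 and 3 of mouse 42 also ended it (adjusted p = 0.0535 to 0.0572).

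Oaz1 (probe mMC022932) was at 13.23, 13.24 and 13.24 in the normals and at 13.21 to 13.47 in the tumors, with a median of 13.36. The normals lay close together, and 6 of 7 tumors exceeded their own normal by small amounts. The difference was 0.12 ± 0.07 (limma adjusted p = 0.187, 95% interval -0.04 to 0.28). Its dimmer second probe gave -0.23 ± 0.18 (adjusted p = 0.314).

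Azin1, the antizyme inhibitor, was lower in tumors, in a range close to background. Its log2 signal (probe mMC002096) was 6.59, 6.65 and 6.62 in the normals and ran from 6.19 through 6.36 to 6.41 in the tumors. The groups did not overlap, as was the case for 41.5% of all genes tested. The difference was -0.27 ± 0.07, or 1.21-fold lower (limma adjusted p = 0.0118), and all 7 tumors lay below the own normal. The probe was above background in all 3 normals and in 4 of 7 tumors, and its size depends on the background step, with -0.76 when no normexp correction was made. Leaving out the mouse 42 normal, and so mouse 42 from the difference, ended the call (-0.21, adjusted p = 0.103). A second Azin1 probe stayed at background throughout.

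**Figure D2:**
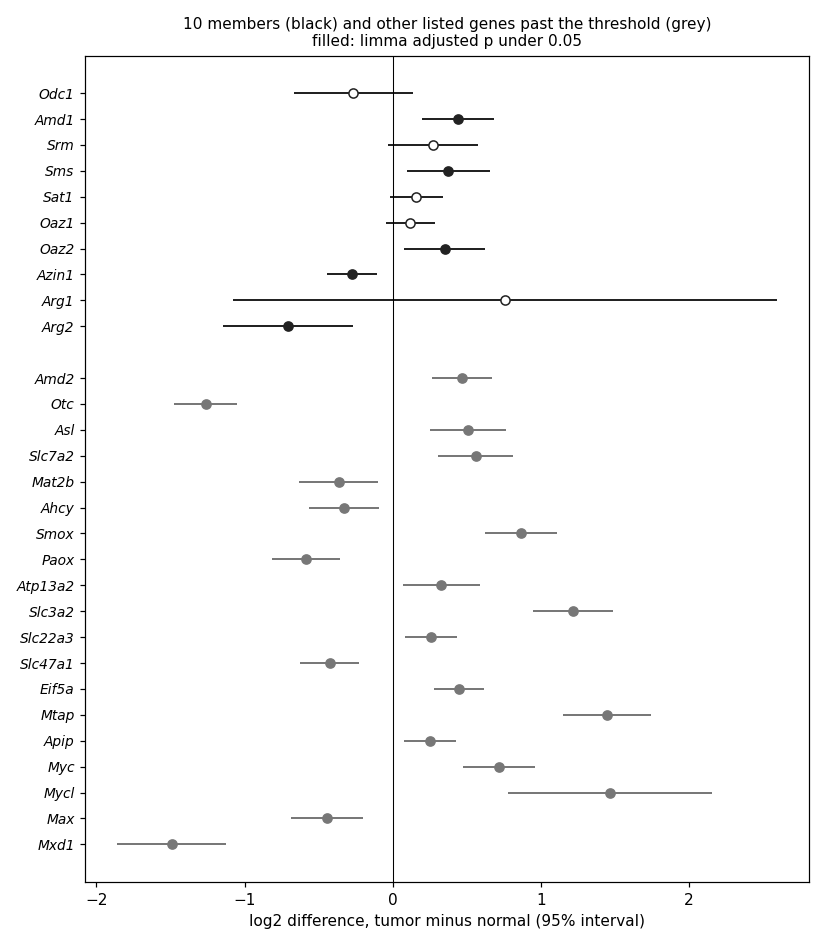
Tumor minus normal difference on the log2 scale (x axis) with its 95% interval for the 10 genes (black) and for the named genes of the wider lists that passed the threshold (grey), filled where limma adjusted p was under 0.05. Arg1 has the widest interval, from -1.07 to 2.58, while Mtap, Slc3a2 and Smox lie to the right of every interval of Odc1, Sat1 and Oaz1.

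Of the arginases, which feed ornithine into the pathway, Arg2 passed and Arg1 did not, and no test compared them. Arg2, the mitochondrial form, was lower in tumors on its tested probe. Its log2 signal (probe mMC015792) was 7.83, 8.69 and 7.79 in the normals of mouse 41, mouse 42 and mouse 43, and ran from 7.06 through 7.48 to 7.67 in the tumors. The groups did not overlap, and the normal of mouse 42 stood well above the other 2 normals. That array is 1 of the 2 with high squamous markers. The difference was -0.71 ± 0.19, or 1.63-fold lower (limma adjusted p = 0.0135), with all 7 tumors below the own normal. Without the normal of mouse 42, a fit that rests on mouse 41 and mouse 43, it was -0.39 and did not pass (adjusted p = 0.133). With tumors averaged within each mouse it was -0.66 (adjusted p = 0.0587). By mouse the difference was -0.43 in mouse 41, -1.24 in mouse 42 and -0.32 in mouse 43. Without the 2 arrays with high squamous markers it was -0.43, a fit that rests on mouse 41. With the same arrays left out and no block it was -0.39 (limma adjusted p = 0.0794). A further Arg2 probe, mMO035400, with an ID prefix outside the gene probes and not tested, averaged 11.29 in normals and 11.34 in tumors before normalization between arrays, with 4 of 7 tumors above the own normal.

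Arg1, the cytosolic form, which macrophages and squamous epithelium can also express, split by mouse. Its log2 signal (probe mMC016570) was 8.39 in the normal of mouse 41 and 9.85, 10.13 and 10.57 in its tumors. In mouse 42 the normal stood at 11.58 and the tumors at 9.19, 9.24 and 9.67, and in mouse 43 the normal stood at 8.89 and the tumor at 12.54. The tumors thus lay above the own normal by 1.46 to 2.18 in mouse 41 and by 3.65 in mouse 43, and in mouse 42 the differences were -2.38 to -1.91. Over all arrays the difference was 0.76 ± 0.81 (limma adjusted p = 0.464). The effect in mouse 42 minus that in mouse 41 was -4.00 ± 0.41 (adjusted p = 0.00902 over all genes, of which 0.401% passed), in a fit chosen after seeing the data in which each mouse has a single normal, assumed to vary as the tumors do.

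The 2 arrays with the highest Arg1, namely mouse 42 normal and mouse 43 tumor, were also the 2 with high squamous epithelium markers. The mean deviation of 12 squamous markers from their own means reached 1.98 for the mouse 42 normal and 1.85 for the mouse 43 tumor, while the remaining 8 arrays lay at -0.65 to -0.14, and 9 of the 12 were higher in both than on any other array. Krt13, a keratin of stratified epithelium, stood at 12.44 and 11.41 there and at 6.76 to 8.63 elsewhere. Of the 12, Krt1 and Krt10 passed as lower in tumors (23.7% of all genes did) and none as higher (25.9% of all genes). Over the groups this list ran from -0.48 to 1.98 in normals and from -0.65 to 1.85 in tumors, and Sprr3, a further marker on the list, was not above background on enough arrays to be tested. Without these 2 arrays Arg1 was 1.79 ± 0.29 higher in tumors (limma adjusted p = 0.00832), which compares the 3 tumors of mouse 41 with its 1 normal, assumed to vary as the tumors do, and without the mouse as a block it was 1.14 (adjusted p = 0.0274). Without only the normal of mouse 42, a fit that rests on mouse 41 and mouse 43, it was 2.54 (limma adjusted p = 0.00214). Without only the tumor of mouse 43, a fit that rests on mouse 41 and mouse 42, it was -0.21 (adjusted p = 0.837). The part of squamous tissue in the Arg1 signal was not tested.

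Macrophage markers gave another order of arrays. Of 10 listed markers 8 were tested, 6 of these rose (25.9% of all genes tested rose) and none fell, and their mean deviation was -1.02 to -0.73 in the normals and 0.10 to 0.59 in the tumors. Cd68 and Csf1r had no gene probe. Of 4 markers of alternatively activated myeloid cells, in which Arg1 is well known, the 3 tested rose (Chil3, Mrc1 and Mgl2), with -0.95 to -0.53 in normals and -0.12 to 0.77 in tumors, and Retnla was too dim to test. For macrophage markers the mouse 42 normal was at -0.88, between the other normals, and the mouse 43 tumor at 0.11, near the low end of the tumors. For the alternatively activated list they were at -0.95 and -0.12, each the lowest of its group. The part of macrophages in the Arg1 signal was not tested, and in whole tissue fewer cells of a type and less RNA per cell cannot be told apart.

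**Figure D3:**
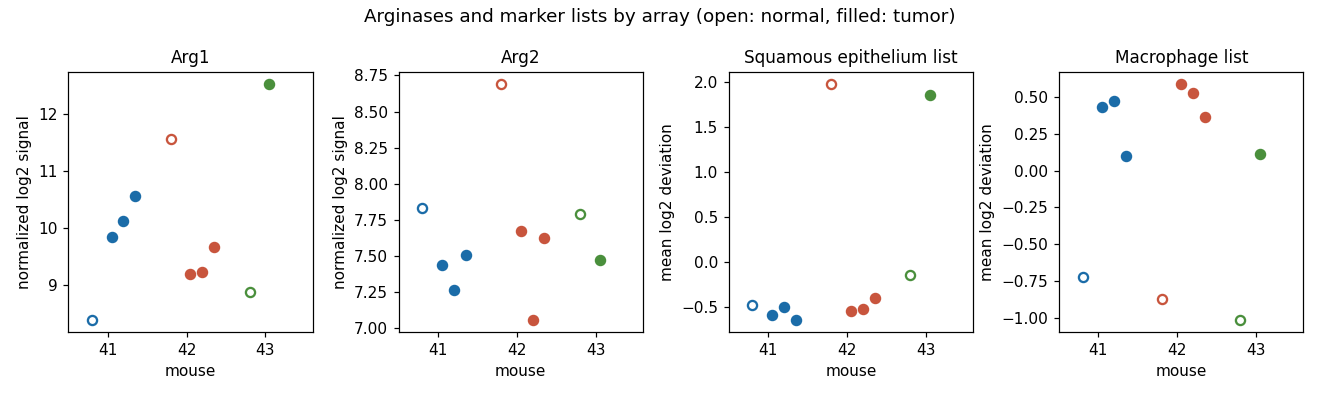
Arg1 and Arg2 log2 signal and the mean log2 deviation of the squamous and macrophage marker lists (y axes) for each array by mouse (x axis), with open circles for normals and filled circles for tumors. The mouse 42 normal and mouse 43 tumor stand apart for Arg1 and for the squamous list, and macrophage markers separate tumors from normals.

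The genes whose log2 signal followed Arg1 most closely over the 10 arrays were Anxa1 (Pearson r = 0.97), Rab38, Trim29, Prss22 and Spatc1l (r = 0.93 for each). None of these 5 passed between tumors and normals, with log2 differences of 0.06 to 0.87. For Odc1 the closest were Slc22a12 (r = 0.93), Alg14, Mrgprf, Taco1 and Exosc3 (r = 0.89 to 0.90), and their differences of -0.31 to -0.07 did not pass either. These correlations describe 10 arrays from 3 animals and were the highest among 11740 genes with a symbol.

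Beyond the 10 genes, 39 further genes of polyamine, arginine and methylthioadenosine metabolism were listed, and 30 could be tested. Of these 10 rose and 6 fell, a share of 53.3% against 49.6% of all genes, and their median log2 difference was 0.15. Among precursors and synthesis 3 of 13 rose (Amd2, Asl and Slc7a2) and 3 fell (Otc, Mat2b and Ahcy). Otc, which turns ornithine into citrulline in the urea cycle, was at 7.19 to 7.43 in the normals and 5.93 to 6.24 in the tumors, where it was above background in 1 of 7, and was lower in tumors (log2 difference -1.26 ± 0.09, limma adjusted p = 2.53e-05). The size of the Otc difference depends on the background step, with -0.88 for the spot median, -1.97 with a normexp offset of 16, -2.61 without normexp and -4.44 in the authors' deposited table, all past the threshold. Slc7a2, a carrier of cationic amino acids, was at 6.22 to 6.29 in normals and 6.60 to 7.04 in tumors, above background in 1 of 3 normals (1.48-fold higher, adjusted p = 0.00246). Asl, which releases arginine from argininosuccinate, was 1.43-fold higher (adjusted p = 0.00441) but did not pass with the spot median (0.22). Mat2b and Ahcy, of S-adenosylmethionine turnover, were 1.29-fold and 1.26-fold lower, and each did not pass in 14 of 30 alternatives.

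Transcripts of the polyamine oxidases Smox and Paox moved in opposite directions. Smox, spermine oxidase, which turns spermine back into spermidine, was at 8.94 to 9.46 in the normals and 9.92 to 10.25 in the tumors, with no overlap. The rise was 1.82-fold (0.87 ± 0.11 in log2, limma adjusted p = 0.000212) and passed in all 30 alternatives. Paox, which oxidizes the acetylated polyamines that Sat1 makes, was at 8.78 to 9.06 in the normals and 8.09 to 8.50 in the tumors. It was 1.50-fold lower (-0.59 ± 0.10, adjusted p = 0.00121) and passed in 29 of 30. Aoc1, the diamine oxidase that degrades putrescine, was at 12.37 to 13.03 in normals and 10.86 to 13.10 in tumors (adjusted p = 0.0887), with its lowest value in tumor 3 of mouse 41.

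Of the listed carriers, Slc3a2, a chain of amino acid exchangers also described in polyamine export, had the largest difference. It was at 10.73 to 10.89 in the normals and 11.67 to 12.24 in the tumors, 2.32-fold higher (log2 difference 1.21 ± 0.12, limma adjusted p = 6.89e-05), and passed in all 30 alternatives. Slc47a1, an exporter of organic cations, was 1.34-fold lower (adjusted p = 0.00311). Slc22a3, not above background in any normal, was at least 1.08-fold higher in tumors (adjusted p = 0.0191), a bound set by the lowest signals above background. The Slc22a3 call was lost in 12 of 28 alternatives, among them median scaling (0.09, adjusted p = 0.421). Atp13a2, a lysosomal polyamine exporter, was 1.26-fold higher (adjusted p = 0.0349), but with the spot median it stood at -0.20 and in the deposited table at -0.32, neither past the threshold.

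Of 7 tested genes of hypusination and methylthioadenosine salvage 3 rose (Eif5a, Mtap and Apip) and none fell, so that 42.9% passed against 49.6% of all genes. Mtap, which clears the methylthioadenosine that spermidine and spermine synthesis leave behind, was at 7.87, 7.73 and 7.68 in the normals and 8.75 to 9.43 in the tumors. The rise was 2.73-fold (1.45 ± 0.13 in log2, limma adjusted p = 4.98e-05), the largest rise among the tested genes of these lists and the 10 genes, and passed in all 30 alternatives. Eif5a, the translation factor that carries the spermidine-derived residue hypusine, was at 13.04 to 13.17 in normals and 13.48 to 13.66 in tumors (1.37-fold, adjusted p = 0.00083) and stood at 0.06 with the spot median, where it did not pass. Apip, of methionine salvage, was 1.19-fold higher (adjusted p = 0.0206) and did not pass in 15 of 30 alternatives.

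MYC and its partners were read because MYC is known to bind Odc1, Srm and other genes of the pathway. Of 7 tested 2 rose and 2 fell, 57.1% against 49.6% of all genes. Myc was at 9.61, 9.71 and 9.52 in the normals and 9.94 to 10.62 in the tumors, 1.64-fold higher (log2 difference 0.72 ± 0.10, limma adjusted p = 0.00054), and did not pass with the spot median (0.45). Mycl was 2.76-fold higher (adjusted p = 0.00341), with tumor 3 of mouse 41 at the level of the normals. Mxd1, which competes with MYC for MAX, was at 12.05 to 12.18 in the normals and 9.97 to 11.23 in the tumors, 2.81-fold lower (adjusted p = 0.000116), and passed in all 30 alternatives. Max itself was 1.36-fold lower (adjusted p = 0.00659). All 7 tumors lay above all 3 normals for Myc, as they did for 21.4% of all genes tested. A link between Myc and Odc1 was not tested.

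**Figure D4:**
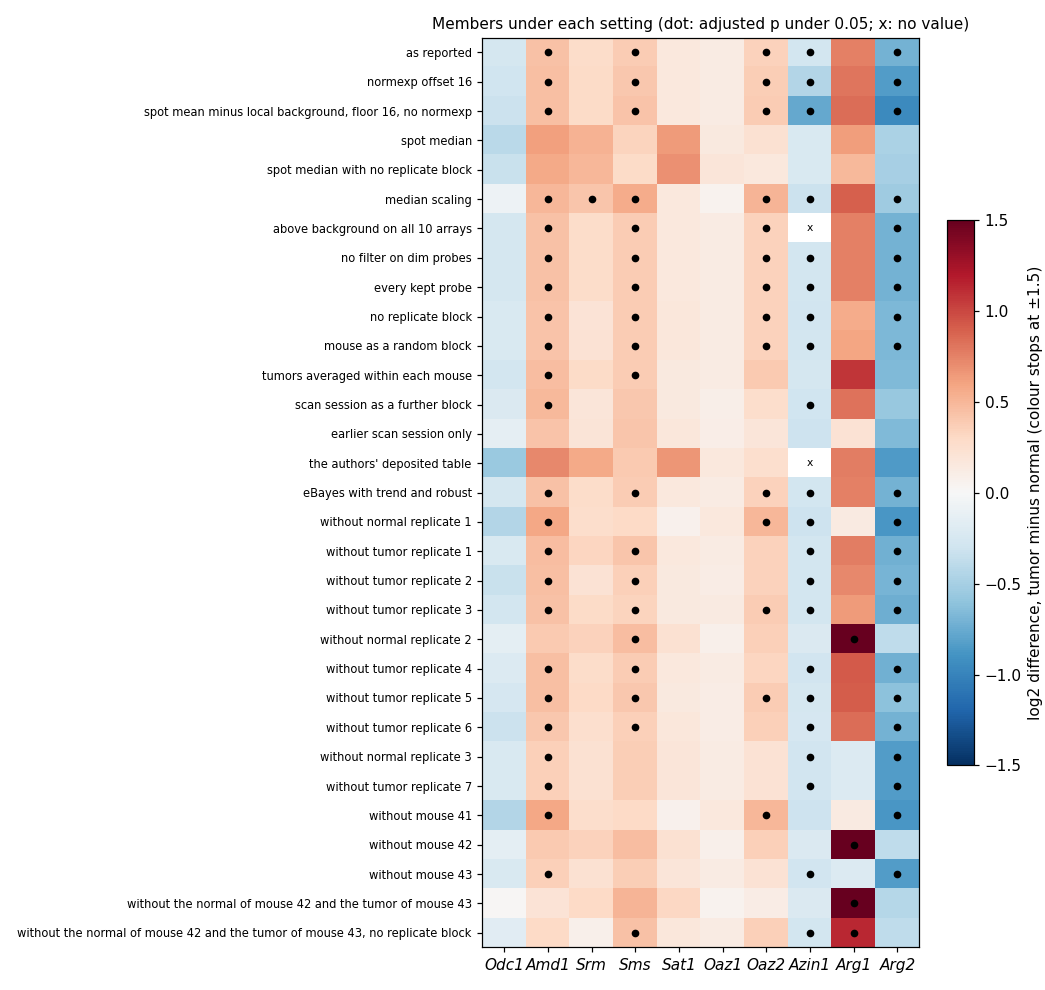
Tumor minus normal difference of each of the 10 genes (columns, colour scale in log2 units that stops at 1.5 in either direction) as reported and under each alternative (rows), with a dot where the adjusted p was under 0.05 and an x where there was no value. Of the 5 genes called, Oaz2 has the fewest dots (13 of 30 alternatives) and Amd1 22 of 30, none is present for Odc1, Sat1 or Oaz1, and Arg1 changes sign with the arrays left out.

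The label of the tissue was checked on other genes of the arrays. The share of gene probes above background ran from 57.7% to 66.7% per array. Absorptive colonocyte markers fell in 5 of 5 tested genes and fibroblast markers rose in 7 of 7, and of 9 epithelial markers 5 fell and 1 rose. On the absorptive list tumor 3 of mouse 41 stood apart, with a mean log2 deviation of 1.10. The other tumors lay at -2.47 to -1.11 and the normals at 2.90 to 3.42. Of 7 neutrophil markers all rose, and of 5 smooth muscle markers 4 fell. Among all genes 25.9% rose and 23.7% fell. These lists moved between the groups together with the genes above, and their part in the polyamine differences was not tested. Of the tumors 4 were scanned in a later session that included no normal. Within the earlier session of 3 tumors and 3 normals, in which mouse 43 had no tumor, none of the 10 genes passed, 22.3% of all genes did, and the 5 that had passed over all arrays kept their directions.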

How the data were processed

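Total RNA of 10 samples was converted to biotin-labelled cRNA, with Alexa-647 as the label, per the labels' protocols, and read on 1-colour arrays (GenePix scanner at 635 nm, gain 650, 38880 spots, per the file headers). The deposited scanner files give each spot's linear intensity without normalization. The authors deposited a further table of linear intensity for 19327 probes, and at least 99.6% of them on each array equal the spot median minus background times 1 factor within 0.1%. The scanner's spot flags are software marks per the file headers (unit other). The genome build and annotation of the array are not given in the sources used here. Promoter sequences are RefSeq's, of GRCm38.p6.

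Of 34312 gene probes (ID prefix mMC, mMR or mMA) 22987 matched 1 symbol through RefSeq accessions. Background was corrected with normexp (offset 50) on spot mean and local background, and gene probes were quantile normalized after 43 marked bad were left out. Above background means a spot that was found and whose mean minus local background exceeded the 99th percentile of 432 null spots. Requiring this on 3 or more arrays and taking the brightest probe per gene gave 14478 genes. Tumors and normals were compared with limma 3.58.1 in R 4.3.3 (lmFit, eBayes, mouse as a fixed block), adjusted over all genes (threshold 0.05), and the code was tested on simulated data. Intervals are 95%. Samples of 1 animal pair by the labels, although the normal and the averaged tumors of a mouse deviated from their group means with correlations of 0.11, -0.07 and -0.08. Tumors of 1 mouse are not independent animals, so p-values measure the spread between samples. The number of arrays limits the precision. The genes, lists and alternatives were chosen with earlier results of these data known, and the per-mouse effects, the other probes and the spot median without the block were added after seeing the data. All 10 genes are named, as is every gene of the wider lists past the threshold except 1 that is counted but not reported here, with others that did not pass given as values. A gene not above background in any sample of a group has only a bound: on each dim array its signal was raised, where lower, to the lowest signal that counted as above background. Figures used matplotlib 3.10.9.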

Additional observations from a re-analysis of the deposited data

Results flagged for a closer look

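Arg1 in the tumor of mouse 43 (log2 signal 12.54) lay apart from the other 6 tumors, with a gap to the next tumor of 0.59 of the whole range of the tumors. Among groups of this size, if their samples were independent, about 1 in 20 would be picked out by chance in this way. Here 10 genes were looked at, the tumors came from 3 mice, and this was the only tumor of mouse 43. The Arg1 effect of mouse 42 minus that of mouse 41 was -4.00 on the log2 scale, with all 3 tumors of mouse 41 above their normal and all 3 of mouse 42 below theirs (limma adjusted p = 0.00902, 1 normal per mouse).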

How the results depend on the processing

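Counts of the 10 genes called higher and lower (3 and 2) fell to 0 and 0 with the spot median, also with no replicate block, for the earlier scans alone, and for the authors' deposited values. In these settings, in that order, 18.9%, 20.5%, 22.3% and 22.3% of all genes passed, against 49.6% as reported. Adding the scan session to the block gave 1 and 1 (36.5% of all genes), and tumors averaged per mouse gave 2 and 0 (36% of all genes). The counts of the 10 genes were 1 and 0 without mouse 42 or without the 2 arrays with high squamous markers. The 1 was Arg1, and all 5 reported calls were lost. Of all genes 27.6% passed without mouse 42 and 17.3% without the 2 arrays. Without these arrays and the block Sms and Arg1 passed as higher and Azin1 as lower. Without mouse 43 Amd1 passed as higher, and Azin1 and Arg2 as lower. Without mouse 41 Amd1 and Oaz2 passed as higher and Arg2 as lower. Of all genes 44% passed without mouse 43 and 40.2% without mouse 41. When every array had to be above background Amd1, Sms and Oaz2 passed as higher and Arg2 as lower, and Azin1 had no value. Without single arrays the counts of the 10 genes ran from 1 to 3 higher and from 0 to 2 lower. Leaving out a mouse's only normal, or the only tumor of mouse 43, removes that mouse from the difference. The wider list (10 higher and 6 lower) became 4 and 3 with the spot median (with or without the block) and in the deposited table, 5 and 3 within the earlier session, 6 and 2 without mouse 42, and 3 and 1 without the 2 arrays. With the session as a block it had 3 lower, and Atp13a2, Slc22a3 and Apip no longer passed as higher. The mouse pairs the samples by the labels. With no replicate block the wider list had 3 lower and Apip no longer passed as higher. The 10 genes then had the same counts, 3 and 2. Over all genes 17.3% to 50.9% were called in the alternatives. Signs turned for Odc1 without the 2 arrays (0.0192), Arg1 without the normal or the tumor of mouse 43 or both (-0.21), while Arg1 without single arrays ran from -0.21 to 2.54, and Atp13a2 with the spot median (-0.20, and -0.21 with no block) or in the deposited table (-0.32). The causes were not tested. Signals near background, as of Azin1 and Otc, and spots whose mean exceeds their median several times, as of Amd1, Sat1 and Oaz1, limit the sizes given.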
